A study of Mus musculus with 2 samples.

Results

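Granzymes and the proteins that work beside them in cytotoxic cells were followed through early T-cell differentiation in culture. The 7 genes were the granzymes Gzma, Gzmb and Gzmc, the pore-former Prf1, the granule membrane protein Nkg7 and the signalling adaptors Tyrobp and Fcer1g, out of 28692 genes counted. They were selected on their UMI levels across the gates of these same cells, already known from the data, so what follows is a description, without tests. The cells were wild-type CD1 mouse fetal liver HSPCs (hematopoietic stem and progenitor cells, Sca-1+ cKit+) from E13.5 embryos, depleted of TER-119+ cells and cultured on plates coated with the Notch ligand DL4 at 10 µg/mL together with the adhesion molecule VCAM-1 at 2.32 µg/mL. The 2 droplet libraries, FL001 and FL002, carried the same labels. The study describes cells captured fresh or after 4 or 7 days and then pooled, and the day of each library was not given in the sources used here, so the libraries are shown side by side and not as replicates. With 1 library each there was no replicate check, and every interval covers counting error only.

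Granzymes are serine proteases that cytotoxic lymphocytes store in secretory granules, bound to the proteoglycan serglycin. Perforin, the product of Prf1, opens the target cell membrane so that granzymes can reach the cytosol. Nkg7 takes part in granule exocytosis. Tyrobp (DAP12) and Fcer1g (the common gamma chain of Fc receptors) are short transmembrane adaptors with ITAM motifs, which carry the signal of activating receptors that have no signalling tail of their own in natural killer (NK), innate lymphoid and myeloid cells.

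A barcode was kept as a cell at 1500 or more UMIs (unique molecular identifiers, each counting 1 captured transcript), 500 or more genes and at most 10% mitochondrial UMIs. FL001 held 1788 such cells with a median of 7722 UMIs, and FL002 held 4100 with a median of 4752.5. 10 barcodes were kept in both libraries. The cells were sorted into gates by their own UMIs. The progenitor gate needed 2 or more UMIs of Lmo2 and Mef2c together, with at most 1 of Cd3g (428 and 724 cells in FL001 and FL002). The early gate needed at most 2 of Cd3g and at most 1 of Lmo2 and Mef2c (381 and 1134). The Cd3g gate needed 3 or more of Cd3g and none of Il2ra (327 and 873), and the Il2ra gate 1 or more of Il2ra (738 and 1668). The commitment gate needed 2 or more of Ptcra, Lef1 and Bcl11b together (451 and 501), and the innate gate 2 or more of Rora, Klrd1 and Ncr1 together (38 and 33). Gates may share cells, and 565 and 829 cells were in several. A level is stated in CPM, a gene's summed UMIs over the summed UMIs of all cells in the gate, scaled to 1000000.

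The gates were checked with marker genes that the gate rules did not use. The 5 other T-lineage markers summed to 48.3 CPM in the progenitor gate and 1165 CPM in the commitment gate of FL001, and to 61.4 and 1155 CPM in FL002. The 14 other innate lymphoid and NK markers summed to 1481 CPM (FL001) and 1389 CPM (FL002) in the innate gate, and to at most 229.7 CPM in the other gates. The 5 other T-lineage markers also summed to 738 and 681 CPM in the innate gate. The 5 other progenitor markers summed to 453 and 431 CPM in the progenitor gate and to 29.7 and 26.2 CPM in the commitment gate. The 10 neutrophil and monocyte markers summed to 2522 CPM in the progenitor gate and 3766 CPM in the early gate of FL001, against 87.7 CPM in its Cd3g gate. In FL002 the same sums were 1667, 1132 and 138 CPM. The 6 megakaryocyte markers summed to 672 CPM (FL001) and 341 CPM (FL002) in the progenitor gate. In the Cd3g gate they summed to 23.0 and 30.7 CPM. The progenitor gate thus held cells of several types.

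Of the 7 genes, 6 had a promoter window in the RefSeq table of build GRCm38.p6, which spans 250 bases before the start site and 50 after it. The windows of 5 genes are shown because they set genes of very different level side by side, from Gzma, with the highest level, to Prf1, which was almost without UMIs. Capitals mark TGTGGT or its reverse complement ACCACA, the core letters bound by RUNX factors.

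Gzma, chr13:113100932-113101231, minus strand: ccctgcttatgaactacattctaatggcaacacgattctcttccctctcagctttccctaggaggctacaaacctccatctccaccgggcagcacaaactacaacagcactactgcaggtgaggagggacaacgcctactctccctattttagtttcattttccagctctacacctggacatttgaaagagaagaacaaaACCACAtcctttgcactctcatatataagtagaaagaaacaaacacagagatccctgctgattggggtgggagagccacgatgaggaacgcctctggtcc

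Gzmb, chr14:56262285-56262584, minus strand: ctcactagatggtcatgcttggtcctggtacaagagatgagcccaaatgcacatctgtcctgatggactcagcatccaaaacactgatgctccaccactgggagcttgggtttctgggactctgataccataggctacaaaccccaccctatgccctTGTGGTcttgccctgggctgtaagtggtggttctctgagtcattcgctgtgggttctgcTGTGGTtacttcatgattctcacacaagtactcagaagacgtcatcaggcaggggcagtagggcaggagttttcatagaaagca

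Prf1, chr10:61297586-61297885, plus strand: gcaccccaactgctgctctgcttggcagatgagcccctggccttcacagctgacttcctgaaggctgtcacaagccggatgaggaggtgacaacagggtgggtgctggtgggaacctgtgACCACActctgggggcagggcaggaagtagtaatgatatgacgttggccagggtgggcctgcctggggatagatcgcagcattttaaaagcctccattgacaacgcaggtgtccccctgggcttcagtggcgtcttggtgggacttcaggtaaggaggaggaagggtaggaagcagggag

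Nkg7, chr7:43436888-43437187, plus strand: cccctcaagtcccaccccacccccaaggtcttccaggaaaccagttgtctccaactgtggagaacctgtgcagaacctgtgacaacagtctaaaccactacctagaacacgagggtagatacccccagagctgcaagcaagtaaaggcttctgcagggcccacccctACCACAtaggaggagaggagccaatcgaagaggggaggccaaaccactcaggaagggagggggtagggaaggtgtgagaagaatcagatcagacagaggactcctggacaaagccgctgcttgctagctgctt

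Fcer1g, chr1:171234300-171234599, minus strand: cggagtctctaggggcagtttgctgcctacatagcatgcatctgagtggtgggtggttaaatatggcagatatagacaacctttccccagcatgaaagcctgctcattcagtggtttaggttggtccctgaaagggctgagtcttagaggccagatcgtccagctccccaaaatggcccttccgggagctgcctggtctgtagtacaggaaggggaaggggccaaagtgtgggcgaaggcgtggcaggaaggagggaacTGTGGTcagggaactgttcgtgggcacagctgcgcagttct

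These letters stood in 6 of 6 windows, Gzmc included, and in 16.8% of all 32851 windows of the table. Counted from the start site, the first letter lay at -50 in Gzma, at -93 and -34 in Gzmb, at -83 in Nkg7 and at -130 in Prf1. In Fcer1g it lay at 10 after the start. ETS letters (AGGAAG on either strand) stood in 4 of 6 windows and in 35.4% of all. The E-box CANNTG, which can overlap TGTGGT, stood in 6 of 6 windows and in 72.3% of all. AP-1 letters (TGACTCA on either strand) stood in 1 of 6 windows and in 5.20% of all, and no window held TCF/LEF letters (CTTTGA on either strand, 16.0% of all) or GATA letters (AGATAA on either strand, 11.2% of all). Prf1, almost without UMIs, thus held the RUNX letters like the genes with high levels.

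Gzma was the member with by far the most UMIs, and its level followed Cd3g. Its level was 116 CPM in the progenitor gate, 1298 CPM in the early gate, 5643 CPM in the Cd3g gate, 5473 CPM in the Il2ra gate and 7859 CPM in the commitment gate of FL001. In FL002 the levels in the same order were 151, 1173, 3875, 3266 and 5294 CPM. The Cd3g gate stood 48.6-fold (95% interval 44.2 to 53.6) above the progenitor gate in FL001 and 25.7-fold (23.8 to 27.9) in FL002. The size of this ratio depended on how the gates were drawn. It was 105 and 56.3 with each lower gate threshold raised by 1 UMI, and 113 and 45.7 with gates and levels from cells thinned to 1500 UMIs. Another setting subtracted free RNA at the Gzma share of cells with 10 or more neutrophil and monocyte UMIs and at most 1 of Cd3g. There the ratio was 53.4 in FL002, and no value could be had in FL001, where 1 of these cells held 133 of their 272 Gzma UMIs. It was 40.8 and 18.3 without cells holding 3 or more UMIs of Mpo, Elane, Prtn3 and Ctsg, the granule genes of neutrophil and monocyte precursors.

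**Figure D1:**
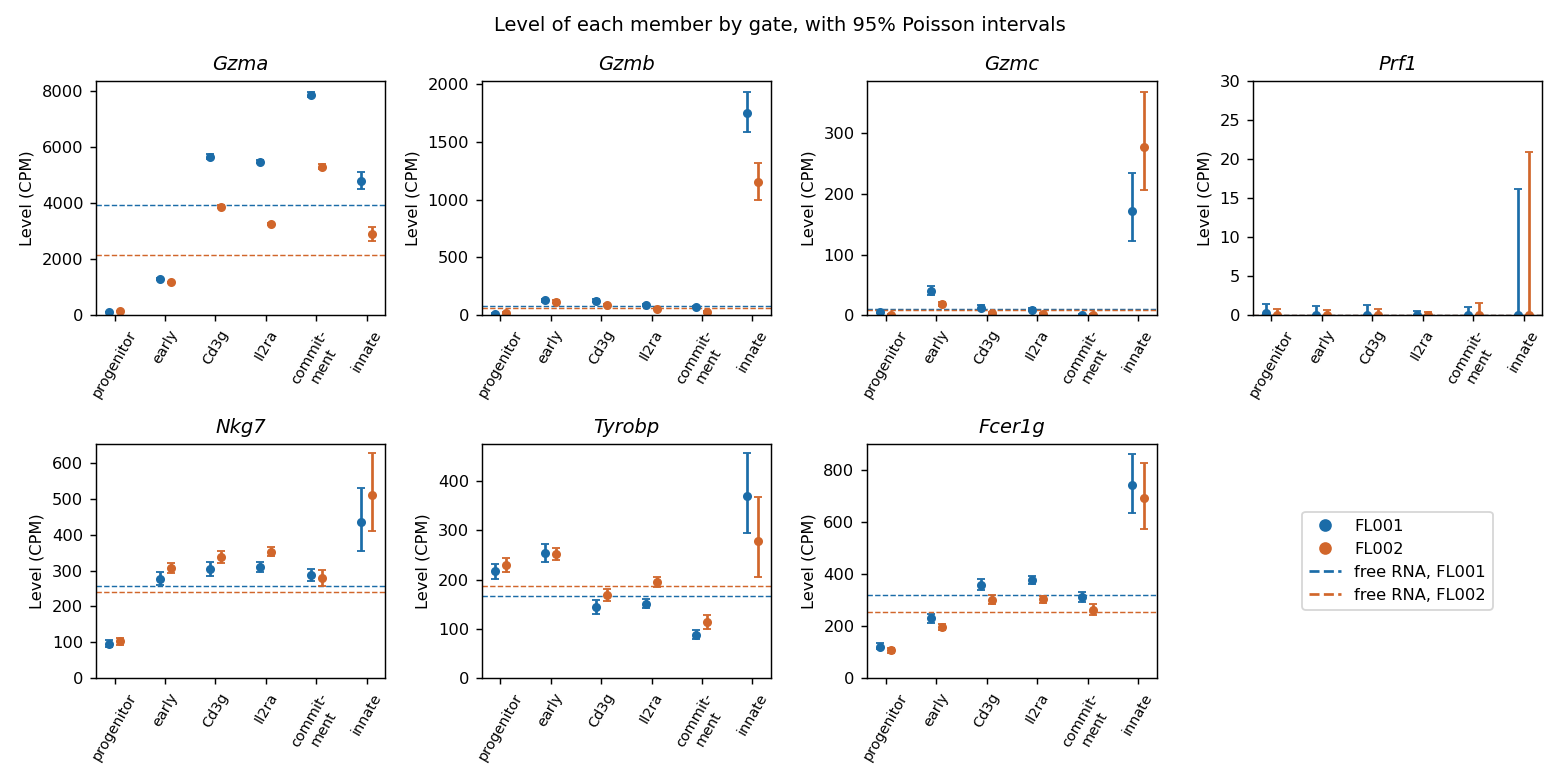
Level of each gene in CPM (vertical axis, linear, starting at 0) in the 6 gates of FL001 (blue) and FL002 (orange), with 95% Poisson intervals for counting error; dashed lines give the level in barcodes of 1 to 100 UMIs. Gzma is lowest in the progenitor gate and highest in the commitment gate (7859 and 5294 CPM), Gzmb and Gzmc are highest in the innate gate, Prf1 stays at or near 0, and Tyrobp is lower in the Cd3g, Il2ra and commitment gates than in the early gate.

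Free RNA limits what can be read from the low end. Barcodes of 1 to 100 UMIs, too few for a cell, carried Gzma at 3922 CPM in FL001 and 2141 CPM in FL002. In the progenitor gate 23.4% of cells (19.4 to 27.7) had a Gzma UMI in FL001, at a median of 8014.5 UMIs. Reference cells held 10 or more UMIs of Mpo, Elane, Prtn3 and Ctsg together and at most 1 of Cd3g, as in the progenitor gate. Both sets were thus limited on Cd3g, the gene most like Gzma. These neutrophil and monocyte cells should lack Gzma, and 24.2% (17.8 to 31.6) of them had a Gzma UMI in FL001, at a median of 10362 UMIs. In FL002 22% (19.0 to 25.2) of progenitor-gate cells had one, with a median depth of 5649.5 UMIs, and 23.8% (17.5 to 31.0) of the reference cells, with a median depth of 7668 UMIs. These shares overlapped within their intervals, but the depths differed. With every cell thinned to 1500 UMIs the shares were 6.78% in the progenitor gate and 8.07% in the reference cells of FL001, and 9.12% (7.12 to 11.5) against 3.05% (0.997 to 6.97) in FL002. The levels were 116 against 156 CPM in FL001 and 151 against 79.6 CPM in FL002. In FL001 1 of the 161 reference cells held 133 of their 272 Gzma UMIs, so the reference level there leans on that cell. The levels were not compared without it. By shares of thinned cells the progenitor gate was not above the reference cells in FL001. In FL002 the progenitor gate was above them by share and by level. If all Gzma of the progenitor gate were free RNA, free RNA would make up 2.96% (FL001) and 7.03% (FL002) of its UMIs.

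Almost every cell past the Cd3g threshold held Gzma. The share with a UMI was 93.6% in FL001 and 89.3% in FL002 in the Cd3g gate, and 95.6% and 94.2% in the commitment gate. On thinned cells these shares were 85.3% and 81.0% in the Cd3g gate and 91.4% and 89.2% in the commitment gate. The amount per cell varied widely. Among Cd3g-gate cells of FL001 the quartiles were 10.6, 39.8 and 84.2 Gzma UMIs per 10000 UMIs and the highest cell held 362, and in FL002 they were 7.89, 25 and 52.7 with a highest of 267. In all kept cells, 191 of 1788 cells in FL001 and 410 of 4100 in FL002 held 50% of the Gzma UMIs.

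Finer steps of Cd3g gave higher Gzma, though not at every step. Among cells with at most 1 UMI of Lmo2 and Mef2c, Gzma stood at 970 CPM in FL001 cells without Cd3g, at 1984 CPM (1882 to 2090) in those with 1 Cd3g UMI, at 1681 CPM (1547 to 1823) in those with 2 Cd3g UMIs, just outside the Cd3g threshold, at 3297 CPM in those with 3 to 5, just inside it, and at 6499 CPM in those with over 10. The order was thus broken in FL001 between 1 and 2 Cd3g UMIs. In FL002 the same steps held 783, 1874, 1944, 2909 and 4320 CPM. Cells with more UMIs can pass a higher Cd3g step, and the median depth of a step lay between 5260 and 8360 UMIs (FL001) and between 3529 and 5185 (FL002), without following the order of the steps.

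Gzma was higher again where commitment genes were detected. Ptcra encodes the pre-T-cell receptor alpha chain, Lef1 a Wnt-responsive factor, and Bcl11b the factor of T-lineage commitment. Cells of the commitment gate stood 1.94-fold (1.91 to 1.98) above the Cd3g and Il2ra cells outside it in FL001, and 1.73-fold (1.70 to 1.77) in FL002. The Il2ra gate sets no limit on Cd3g, Lmo2 or Mef2c. It shared 75 (FL001) and 276 (FL002) cells with the early gate, and 17 and 36 with the progenitor gate. The cells outside the commitment gate were thus not all past the Cd3g threshold. Among Il2ra cells of FL001, the level was 3513 CPM with no UMI of the 3 genes, 6810 CPM with 1, 8550 CPM with 2 to 4 and 7938 CPM with 5 or more. In FL002 it was 2622, 4222, 4898 and 6390 CPM.

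**Figure D2:**
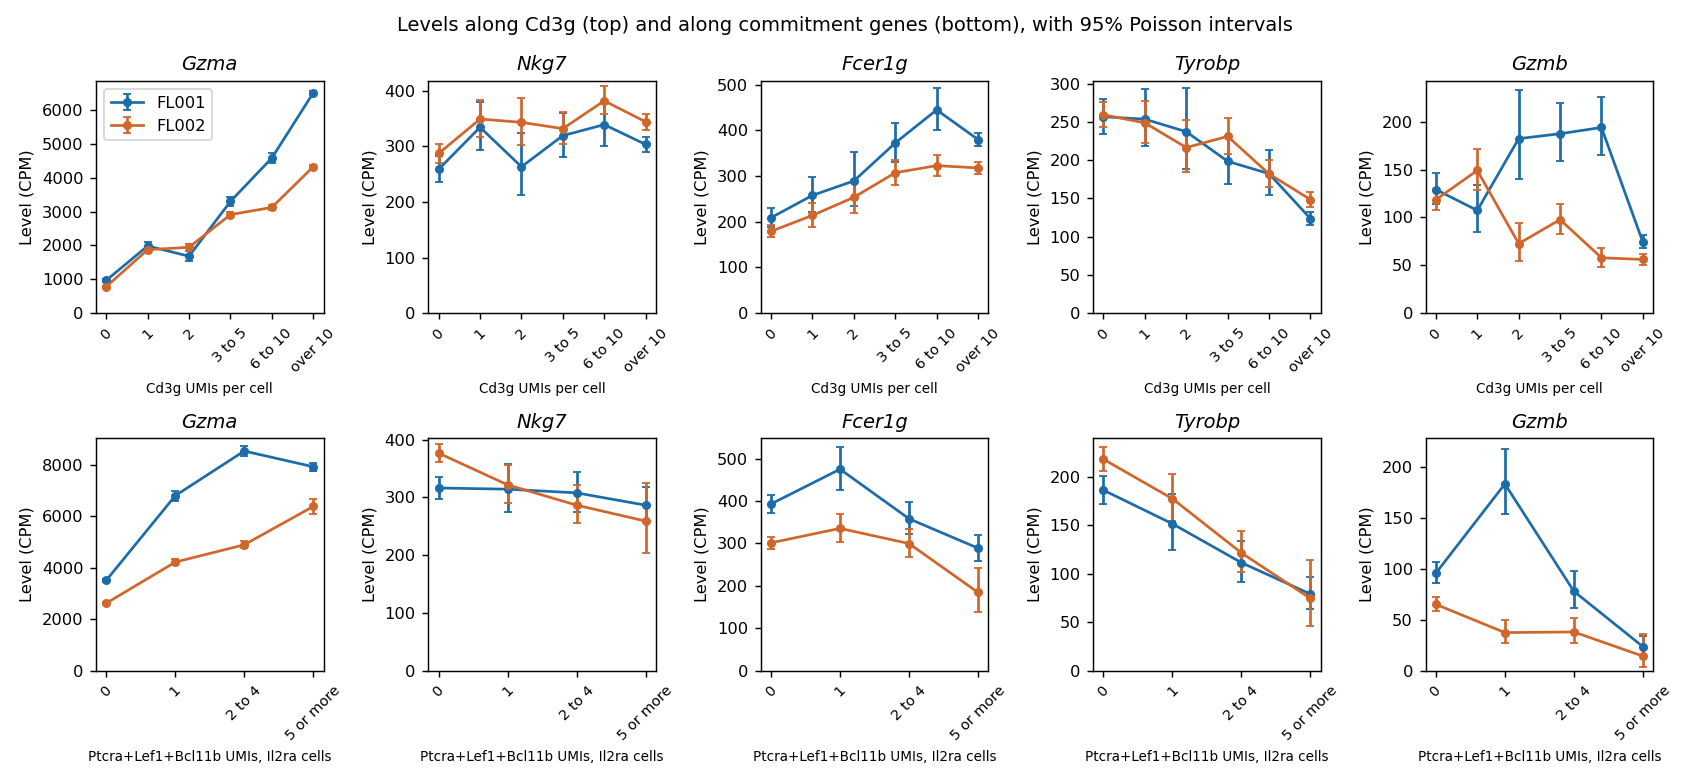
Levels in CPM (vertical axes, linear, starting at 0) of 5 genes by Cd3g UMIs per cell among cells with at most 1 UMI of Lmo2 and Mef2c (top row) and by summed Ptcra, Lef1 and Bcl11b UMIs among Il2ra cells (bottom row), for FL001 (blue) and FL002 (orange) with 95% Poisson intervals. From the first to the last step Gzma is higher and Tyrobp lower in both rows, and Gzmb ends at 23.5 and 14.2 CPM in the most committed step.

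Gzmb, the granzyme that cleaves caspases and Bid in target cells, had another pattern. Over all kept cells outside the innate gate it was low, at 57.7 CPM in FL001 and 61.2 CPM in FL002. The other gates, which share cells with the innate gate, held it unevenly. Gzmb stood at 14.6 CPM in the progenitor gate, 130 CPM in the early gate, 128 CPM in the Cd3g gate, 89.4 CPM in the Il2ra gate and 69.1 CPM in the commitment gate of FL001. In FL002 the levels in that order were 21.7, 119, 86.1, 55.9 and 25.8 CPM. The innate gate held 1749 CPM in FL001 and 1151 CPM in FL002, which was 30.3-fold (26.8 to 34.2) and 18.8-fold (16.1 to 21.8) above all other kept cells. A Gzmb UMI was found in 22 of 38 innate-gate cells of FL001 and 16 of 33 of FL002. The highest cell held 56 of 398 UMIs in FL001 and 79 of 203 in FL002. In FL001 30 cells, and in FL002 90 cells, held 50% of all Gzmb UMIs.

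Part of the Gzmb level of the T-lineage gates lay in cells that they shared with the innate gate. The Cd3g gate stood 8.76-fold above the progenitor gate in FL001 and 3.98-fold in FL002, and without the innate-gate cells these ratios were 4.51 (3.31 to 6.22) and 2.47 (1.93 to 3.18). With the innate-gate cells kept in, the ratios were 13.5 and 6.64 with raised thresholds. They were 19.8 (3.45 to 794) and 2.08 (1.21 to 3.82) with gates and levels from thinned cells, so the first is known only loosely. They were 5.69 and 2.20 without cells holding neutrophil and monocyte UMIs, and in FL001 14.4 as a mean over cells. 16 of 327 Cd3g-gate cells in FL001 and 15 of 873 in FL002 were in the innate gate too. The lower level with commitment did not rest on them. The commitment gate stood at 0.571 (0.492 to 0.661) of the uncommitted Cd3g and Il2ra cells in FL001 and 0.343 (0.260 to 0.445) in FL002, and at 0.518 and 0.350 without innate-gate cells. Along commitment genes among Il2ra cells, Gzmb was 95.7, 183, 77.9 and 23.5 CPM in FL001 and 65.0, 37.3, 37.9 and 14.2 CPM in FL002, so the most committed step held the lowest level in both. In FL002 that step rested on 4 UMIs in 61 cells (3.86 to 36.3 CPM). Its interval overlapped those of the steps with 1 and with 2 to 4 commitment UMIs.

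Gzmc, a granzyme of the cluster that also holds Gzmb, was confined to few cells. It had 176 UMIs in 20 cells of FL001 and 139 UMIs in 27 cells of FL002. 8 cells of FL001 and 7 of FL002 with 3 or more UMIs held 92.6% and 83.5% of them. All 8 in FL001 had Id2, the inhibitor of E proteins that innate lymphoid cells need (11 to 27 UMIs), and the cytokine gene Il22 (1 to 24 UMIs). Their Gzma was 0 or 1 UMI, and 7 of 8 had Gzmb, up to 53 UMIs. In FL002 6 of 7 had Id2, 3 had Il22 and 5 had Gzmb, and Gzma was 0 or 1 in 5 cells and 10 and 18 UMIs in the other two. Fcer1g was present in 7 of 8 cells of FL001 and in 7 of 7 of FL002, while Tyrobp had no UMI in the 8 cells of FL001 and 1 to 6 UMIs in 4 of 7 cells of FL002.

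By gates, Gzmc stood at 171 CPM (FL001) and 278 CPM (FL002) in the innate gate, 40.4 and 18.5 CPM in the early gate, and at most 12.7 CPM elsewhere. In the innate gate 1 cell held 35 of the 39 Gzmc UMIs of FL001, and 2 cells held 37 and 11 of the 49 of FL002. Of the 15 cells with 3 or more Gzmc UMIs, 1 of 8 and 2 of 7 were in the innate gate, since most had no or 1 UMI of Rora, Klrd1 and Ncr1. Of the cells with any Gzmc UMI, 10 of 20 in FL001 and 12 of 27 in FL002 had Gzma too. Gzmc had no UMI in the commitment gate of FL002 (0 of 501 cells, which allows a share of up to 0.599%).

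**Figure D3:**
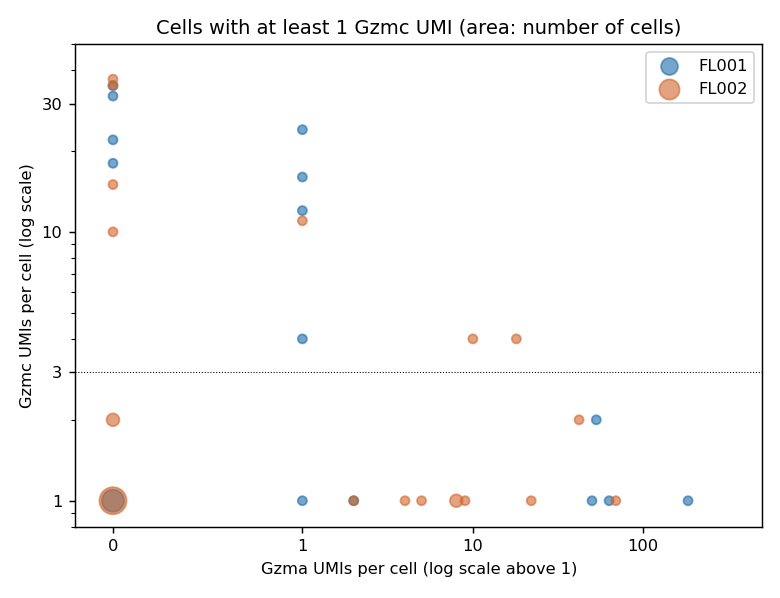
Gzmc UMIs (vertical axis, log scale) against Gzma UMIs (horizontal axis, linear to 1 and log above) in each cell with at least 1 Gzmc UMI, 20 cells of FL001 (blue) and 27 of FL002 (orange), with marker area proportional to the number of cells at a point and a dotted line at 3 Gzmc UMIs. Every cell with 10 or more Gzmc UMIs had 0 or 1 Gzma UMI, and every cell with over 18 Gzma UMIs had 1 or 2 of Gzmc.

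Prf1 was nearly undetected. A single UMI, in a progenitor-gate cell, was found among 1788 cells of FL001, and none among 4100 cells of FL002, which allows a share of up to 0.0732%. These limits cover cells with a captured UMI, not cells expressing the gene. In the innate gate 0 of 38 cells in FL001 and 0 of 33 in FL002 had a UMI, which allows shares of up to 7.89% and 9.09%, so at this depth the innate gate gives only a loose limit. In the Cd3g gate 0 of 327 cells allowed up to 0.917% in FL001, and 0 of 873 up to 0.344% in FL002. The barcodes of 1 to 100 UMIs had no Prf1 UMI either.

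The other granzymes were at or near 0. Of Gzmd, Gzme, Gzmf, Gzmg, Gzmk, Gzmm and Gzmn, 5 of 7 had no UMI in the kept cells of FL001 and 6 of 7 none in FL002. Gzmm reached 4.39 CPM in the innate gate of FL001 and at most 1.27 CPM in a gate of FL002, and Gzme had 1 UMI in FL001. Gzma, Gzmb and Gzmc shared no 50-letter stretch with another gene in the last 400 bases of their GENCODE M21 transcripts, nor did the other 4 genes, so these 3′ counts had no such stretch in which reads could be split with a paralog.

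Nkg7 was higher in every later gate than in the progenitor gate, and differed little among those of the T lineage. Its level was 95.8 CPM in the progenitor gate, 278 in the early gate, 304 in the Cd3g gate, 309 in the Il2ra gate and 287 in the commitment gate of FL001, and 102, 308, 339, 353 and 279 CPM in FL002. The Cd3g gate stood 3.17-fold (2.80 to 3.60) above the progenitor gate in FL001 and 3.31-fold (2.97 to 3.69) in FL002. With gates and levels from cells thinned to 1500 UMIs the ratio was 17.2 (5.81 to 84.3) and 4.58, and with raised thresholds 4.69 and 5.30. Without cells holding neutrophil and monocyte UMIs it was 2.47 (2.06 to 2.98) and 2.37 (2.08 to 2.71). Nkg7 had most of this difference before the Cd3g threshold, with the early gate 2.90-fold (2.56 to 3.29) and 3.01-fold (2.71 to 3.35) above the progenitor gate. The early and progenitor gates both held neutrophil and monocyte markers. The Cd3g gate stood 1.09-fold (0.994 to 1.21) and 1.10-fold (1.03 to 1.18) above the early gate. Gzma differed on both sides of the threshold. Its early gate stood 11.2-fold and 7.79-fold above the progenitor gate, and its Cd3g gate 4.35-fold and 3.30-fold above the early gate. With commitment, Nkg7 stood at 0.899 (0.833 to 0.971) and 0.768 (0.707 to 0.835) of the uncommitted cells.

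Nkg7 in the progenitor gate lay near the level of the neutrophil and monocyte reference cells, 90.5 CPM in FL001 and 90.4 CPM in FL002. Free RNA at the share set by Gzma would give at most 7.63 CPM and 17.0 CPM in the progenitor gate, so these levels were above that limit. The share of cells with a UMI was 33.4% in the progenitor gate and 79.5% in the Cd3g gate of FL001, and 30.1% and 70.8% in FL002. In the reference cells it was 42.2% and 37.8%. The innate gate held 435 CPM in FL001 and 510 CPM in FL002, 1.75-fold (1.42 to 2.13) and 1.79-fold (1.44 to 2.21) above the other cells.

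Fcer1g was higher in the T-lineage gates than in the progenitor gate. It stood at 121 CPM in the progenitor gate, 230 in the early gate, 360 in the Cd3g gate, 378 in the Il2ra gate and 312 in the commitment gate of FL001, and at 107, 196, 301, 302 and 264 CPM in FL002. The Cd3g gate was 2.97-fold (2.65 to 3.33) above the progenitor gate in FL001 and 2.81-fold (2.53 to 3.14) in FL002, and 4.15-fold and 3.94-fold without cells holding neutrophil and monocyte UMIs. Committed cells stood at 0.767 (0.714 to 0.824) and 0.851 (0.780 to 0.927) of the uncommitted ones. The innate gate held 743 CPM and 692 CPM, 2.63-fold (2.24 to 3.07) and 2.94-fold (2.44 to 3.52) above the other cells, and 92.1% and 87.9% of its cells had a UMI. In the reference cells the share was 68.9% and 71.3% and the level 172 CPM and 209 CPM, so Fcer1g has no blank among the cell types here.

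Tyrobp had another order than Fcer1g. Its level was 216 CPM in the progenitor gate, 254 in the early gate, 144 in the Cd3g gate, 151 in the Il2ra gate and 88.1 in the commitment gate of FL001, and 229, 251, 168, 195 and 113 CPM in FL002. The Cd3g gate stood at 0.665 (0.589 to 0.750) of the progenitor gate in FL001 and 0.734 (0.666 to 0.808) in FL002. Neutrophil and monocyte markers moved with this difference. The reference cells held Tyrobp at 339 CPM and 332 CPM, and without cells holding 3 or more UMIs of Mpo, Elane, Prtn3 and Ctsg the ratio was 1.12 (0.907 to 1.38) in FL001 and 0.877 (0.770 to 1.001) in FL002. The direction from the progenitor to the Cd3g gate thus did not hold in FL001 under this setting, while in FL002 the ratio stayed below 1 in every setting tried (0.712 to 0.877).

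Tyrobp was lower with commitment, also without those cells. The uncommitted Il2ra cells included cells of the early and progenitor gates, where Tyrobp stood higher, and their part was not tested. Committed cells stood at 0.475 (0.417 to 0.539) of the uncommitted Cd3g and Il2ra cells in FL001 and 0.557 (0.489 to 0.633) in FL002, and at 0.516 (0.449 to 0.592) and 0.577 (0.503 to 0.659) without cells holding neutrophil and monocyte UMIs. Among Il2ra cells the level went from 186 through 151 and 111 to 78.9 CPM with commitment genes in FL001, and from 218 through 177 and 121 to 74.4 CPM in FL002. Along Cd3g it went from 257 CPM without Cd3g to 124 CPM over 10 UMIs in FL001, and from 259 to 149 CPM in FL002. In the innate gate Tyrobp stood 2.07-fold (1.64 to 2.57) above the other cells in FL001 and 1.36-fold (1.001 to 1.80) in FL002.

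Read against all genes, the counts were as follows, with a call meaning a 2-fold difference after adding 10 CPM to both sides, among genes with 50 CPM or more in either gate. From the progenitor to the Cd3g gate, 5 of 7 members passed the minimum level and 4 of these (Gzma, Gzmb, Nkg7 and Fcer1g) were called higher in both libraries, where 4.33% of all genes were in FL001 and 3.84% in FL002. None of the 5 was called lower, against 3.08% and 2.73% of all genes. These 4 were chosen with this difference known, and Gzmb passed the minimum only through the Cd3g gate, so nothing is read from the count. From the progenitor to the early gate 3 of 5 were called higher, with 1.89% and 1.67% of all genes, and Gzmb passed the minimum only through the early gate. From the early to the Cd3g gate only Gzma was, with 1.78% and 1.18%. With commitment, none of 5 was called higher (1.49% and 0.858% of all genes), and Gzmb alone was called lower, in FL002 (0.683% of all genes in FL001 and 0.381% in FL002). In FL002 Gzmb passed the minimum only through the uncommitted cells (75.2 against 25.8 CPM), so it could only be called lower. Tyrobp in FL001 stood just short of a call, at 0.501. In the innate gate, Gzmb, Gzmc and Fcer1g of 6 members were called higher in both libraries and Tyrobp in FL001, where 4.57% and 3.22% of all genes were. Gzmc passed the minimum only through the innate gate, so it could only be called higher. Its UMIs there lay mostly in 1 cell of FL001 and 2 cells of FL002.

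**Figure D4:**
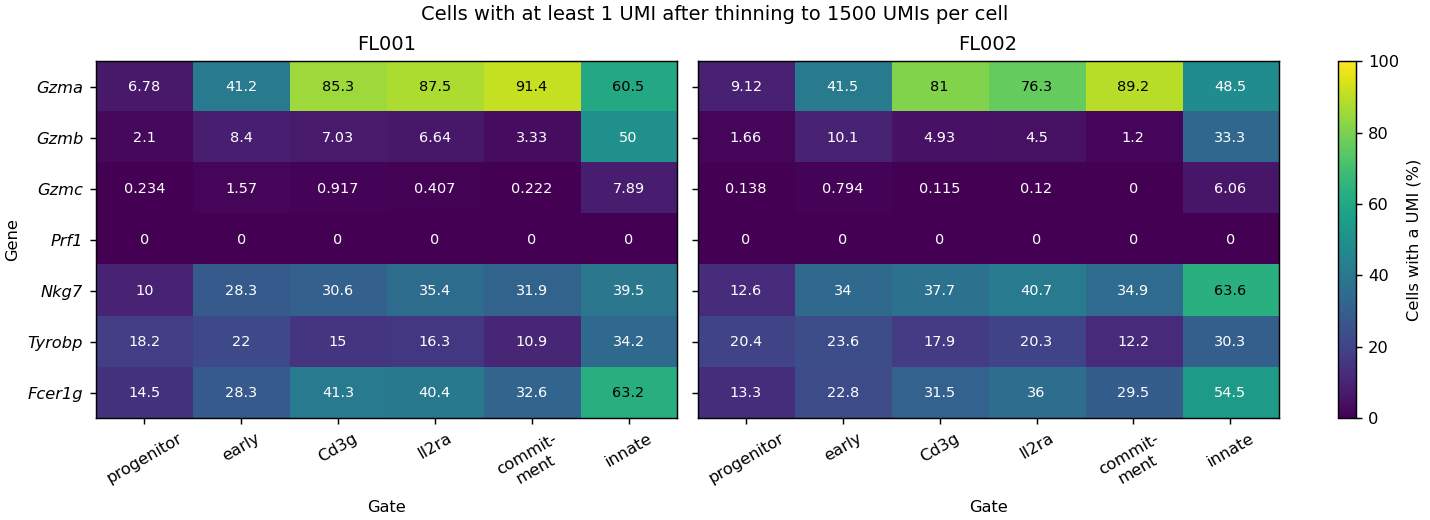
Share of cells in percent (colour and printed value) with at least 1 UMI of each gene (rows) in each gate (columns) after every cell was thinned to 1500 UMIs, in FL001 (left) and FL002 (right). Gzma goes from 6.78% and 9.12% in the progenitor gate to 91.4% and 89.2% in the commitment gate, while Gzmb and Fcer1g have their highest shares in the innate gate and Prf1 is 0 throughout.

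Co-detection asked whether members met in the same cells. On cells thinned to 1500 UMIs, the number with both genes was set against the number expected from the product of their shares in the gate. In the Cd3g gate the pairs with Gzma stood near 1. Gzma and Nkg7 were together in 81 cells of FL001 for 85.3 expected, and in 254 cells of FL002 for 266 expected. Gzma and Fcer1g gave 113 for 115 and 219 for 223, and Gzma and Gzmb 16 for 19.6 and 33 for 34.8. With Gzma in most cells of the gate, these pairs can hardly exceed expectation.

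In the early gate, where Gzma was present in 41.2% and 41.5% of thinned cells, more pairs lay above 1. The gate also held neutrophil and monocyte markers, and the part of mixed cell types in these ratios was not tested. Gzma and Gzmb were together in 22 cells for 13.2 expected in FL001, a ratio of 1.67 (1.05 to 2.53), and in 62 for 47.8 in FL002, 1.30 (0.995 to 1.66). Gzma and Nkg7 gave 1.26 (0.951 to 1.63) and 1.19 (1.02 to 1.37). The adaptors Tyrobp and Fcer1g gave 1.30 (0.885 to 1.85) and 1.36 (1.08 to 1.68), and 1.48 (1.001 to 2.12) and 1.22 (0.932 to 1.57) in the Cd3g gate. Gzmb and Tyrobp gave 1.13 (0.490 to 2.23) and 1.62 (1.18 to 2.17) in the early gate. Gzmb and Gzmc, with 4 cells for 0.504 expected in FL001 and 3 for 0.913 in FL002, had a ratio of 7.94 (2.16 to 20.3) in FL001 and 3.29 (0.678 to 9.61) in FL002. Gzmc and Fcer1g were together in 5 cells for 1.70 expected and in 9 cells for 2.06 expected. Gzma and Gzmc were together in 2 early-gate cells of FL001 for 2.47 expected, a ratio of 0.809 (0.0980 to 2.92), and in 1 of FL002 for 3.74 expected, 0.268 (0.00677 to 1.49), so both intervals included 1.

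**Figure D5:**
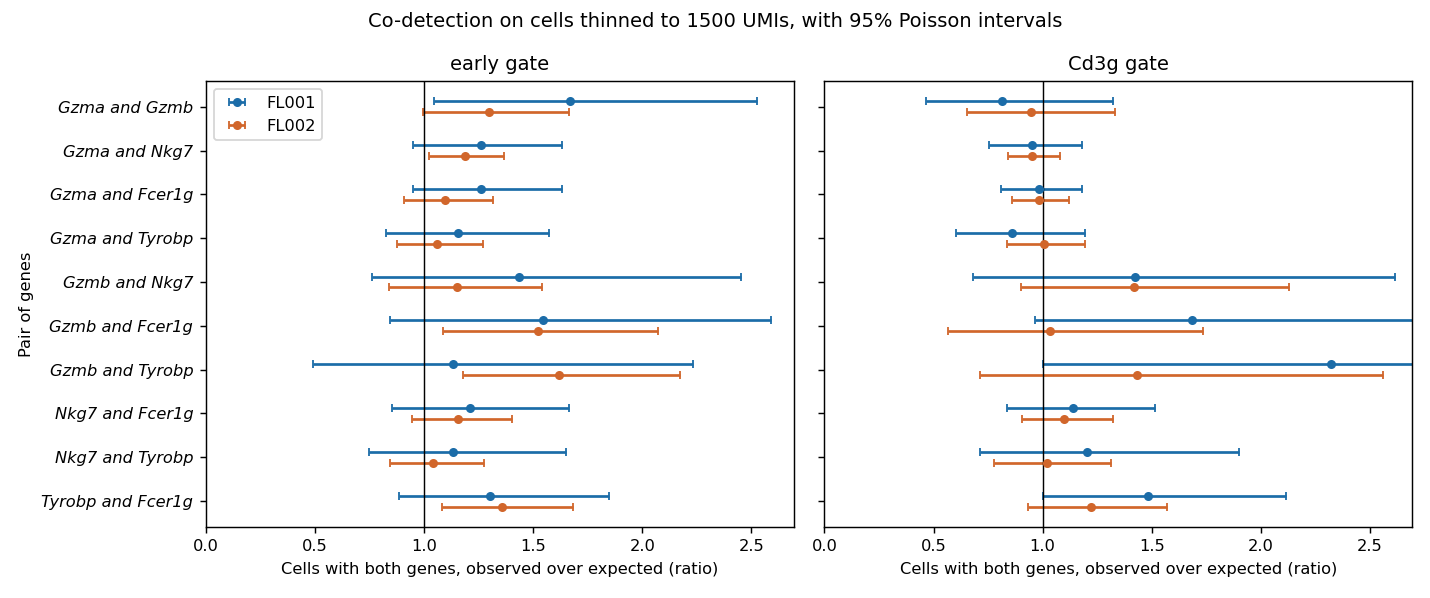
Cells with both genes of a pair, observed over expected from the product of their shares (horizontal axis, ratio, line at 1), in the early gate (left) and the Cd3g gate (right) of FL001 (blue) and FL002 (orange), on cells thinned to 1500 UMIs with 95% Poisson intervals. The drawn pairs of Gzma, with Gzmb, Nkg7, Tyrobp and Fcer1g, lie above 1 in the early gate and near 1 in the Cd3g gate, where Gzma was in 85.3% and 81.0% of cells, and most intervals include 1.

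Between the libraries, Gzma and Gzmb lay farther apart than Nkg7, Fcer1g and Tyrobp in the Cd3g, Il2ra and commitment gates, and not in the early gate. There FL001 stood at 1.11 (1.06 to 1.15) of FL002 for Gzma, 1.09 (0.960 to 1.24) for Gzmb and 1.17 (1.06 to 1.29) for Fcer1g. Gzma in FL001 stood at 0.770 (0.680 to 0.872) of FL002 in the progenitor gate, and at 1.46-fold (1.42 to 1.49) in the Cd3g gate, 1.68-fold (1.65 to 1.70) in the Il2ra gate and 1.48-fold (1.45 to 1.52) in the commitment gate. Gzmb stood 1.48-fold, 1.60-fold and 2.68-fold (2.02 to 3.61) higher in FL001 in the last 3 of these gates. Fcer1g stood 1.19-fold to 1.25-fold higher in FL001 in them, while Tyrobp stood at 0.773 to 0.855 and Nkg7 at 0.875 to 1.03. Gzmb was called higher in the commitment gate of FL001, where 0.28% of all genes were. It passed the minimum only through FL001 (69.1 against 25.8 CPM), so it could only be called higher. In the commitment gate Gzmb had 247 UMIs in 49 cells of FL001, 50 of them in 1 cell, against 61 UMIs in 22 cells of FL002. The commitment gate shared 10 cells of FL001 and 5 of FL002 with the innate gate, and their part in this difference was not tested. The Il2ra gate of Gzma lay at 0.970 of the Cd3g gate in FL001 and at 0.843 in FL002. Gates of the same name also differed in make-up. In the Cd3g gate 168 of 327 cells of FL001 and 198 of 873 of FL002 were in the commitment gate too. In the Il2ra gate these were 275 of 738 and 291 of 1668 cells. Median depth in the Cd3g gate was 7878 UMIs in FL001 and 4386 in FL002. The part of make-up and depth in these ratios was not tested. The days in each library are not known, so day and library cannot be told apart.

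The genes most like Gzma over all kept cells, by the lower Pearson r of log2(counts per 10000 + 1) in the 2 libraries among 7232 genes, were Cd3g (0.595), Ifitm1 (0.549), Ifitm2 (0.511), Ifi202b (0.449) and Akr1c13 (0.431). Fcer1g was most like Cd3g (0.283), Ifitm1 (0.268), Ifitm2 (0.265), Gzma (0.240) and Tcf7 (0.235), and Nkg7 most like Trbc2 (0.346), Ifitm2 (0.310), Ifitm1 (0.285), Ifitm3 (0.260) and Plac8 (0.243). Tyrobp was most like the actin-binding gene Tmsb4x (0.317), Plac8 (0.212), Cd52 (0.184), Ncf1 (0.179) and Actg1 (0.172). Gzmb was most like Tmsb4x (0.242), Cd160 (0.207), Actg1 (0.162), Cpa3 (0.148) and Scin (0.147), and Gzmc like Gzmb (0.192), Id2 (0.159), Cd7 (0.152), Zfp36l1 (0.148) and Serpina3g (0.143). These are descriptions across cells of the same 2 libraries, and all but those of Gzma were weak. Gzma and Tyrobp had r of -0.08 in FL001 and -0.04 in FL002.

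Genes of granule storage and granzyme activation were detected in the progenitor gate. That gate also held neutrophil and monocyte markers (2522 CPM in FL001 and 1667 CPM in FL002), and their part in these levels was not tested. Of 14 genes for granule storage, granzyme activation, inhibition and release, 5 passed the minimum between the progenitor and Cd3g gates in each library, and Serpinb6b alone was called higher, beside the 4.33% and 3.84% of all genes called higher between these gates. Srgn, which encodes serglycin, was 565 CPM in the progenitor gate and 495 CPM in the Cd3g gate of FL001, and 538 and 493 CPM in FL002. Ctsc, the protease that activates granzymes, was 104 and 116 CPM in FL001 and 89.0 and 96.6 CPM in FL002. Serpinb6b, a serine protease inhibitor, was 48.6 and 119 CPM in FL001 and 54.6 and 127 CPM in FL002. In FL001 Serpinb6b passed the minimum only through the Cd3g gate, so it could only be called higher there. Serpinb9, the inhibitor of granzyme B, reached 30.8 CPM (FL001) and 56.7 CPM (FL002) in the innate gate and at most 13.5 CPM in the other gates. Ctsw, a cathepsin of cytotoxic lymphocytes, was 57.1 and 39.7 CPM in the innate gate and at most 8.14 CPM elsewhere. Lyst and Stx11, needed for granule secretion, were low, with at most 6.76 CPM in any gate other than the innate gate.

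Receptors that pair with the adaptors were scarce beside Fcer1g and Tyrobp themselves. None of the 22 genes for such receptors, other adaptors and kinases passed the minimum between the progenitor and Cd3g gates in either library. In the innate gate Ncr1, an activating NK receptor that is also a gene of the gate rule, reached 83.5 and 113 CPM, Klrk1 (NKG2D) 43.9 and 22.7 CPM, and the Fc receptor Fcgr3 39.5 and 39.7 CPM. Fcgr3 was 7.78 and 6.59 CPM in the Cd3g gate. The adaptor Hcst (DAP10) was 26.4 and 38.9 CPM in the progenitor and Cd3g gates of FL001 and 25.9 and 31.4 CPM in FL002. Cd247, the zeta chain of the T-cell receptor complex, had no UMI in the progenitor gates and reached 15.7 and 22 CPM in the commitment gates. The kinase Syk was 38.3 and 33.8 CPM in the commitment gates, where Zap70 was 4.76 and 4.22 CPM.

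Among 9 regulators of the cytotoxic program, 3 passed the minimum between the progenitor and Cd3g gates, where 4.33% (FL001) and 3.84% (FL002) of all genes were called higher and 3.08% and 2.73% lower. Runx3 was called higher in both libraries, with 42.9 and 103 CPM in FL001 and 45.7 and 147 CPM in FL002, and Id2 in FL002, with 63.8 and 145 CPM against 85.3 and 146 CPM in FL001. Zeb2 was called lower, with 85.3 and 17.7 CPM in FL001 and 66.4 and 17.5 CPM in FL002. Runx3 passed the minimum only through the Cd3g gate and Zeb2 only through the progenitor gate. Runx3 could thus only be called higher and Zeb2 only lower. Tbx21 and Eomes, the T-box factors of mature cytotoxic cells, were at 0 or under 1 CPM in every gate apart from Tbx21 in the innate gate (4.39 and 11.3 CPM). Id2 stood at 835 and 686 CPM in the innate gate.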

How the data were processed

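The authors' 10X Chromium libraries were read from the 3′ end on a NextSeq instrument, and CellRanger (version not given in the sources used here) made the matrices. The submitters' processing notes name build mm9. The deposited values are raw UMI counts of 28692 genes in all 737280 barcodes before any scaling or choice of cells, and sum to 16320118 (FL001) and 22651783 (FL002).

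Cells were kept and gated as described above. The members and gene lists were chosen with earlier results of these data known. Levels are CPM of summed UMIs with exact Poisson intervals, shares have exact binomial intervals, ratios have exact conditional intervals (scipy 1.17.1), all at 95% and for counting error only. The limit for a count of 0 is 3 counts. Co-detection used cells thinned to 1500 UMIs. The free RNA profile came from 308744 and 293224 barcodes of 1 to 100 UMIs. Scrublet (scanpy 1.11.5) called 6 and 4 doublets, 0.336% and 0.0976% of cells, too few for a working caller, so none was removed, and leaving out the top 5% by score was an alternative. Of 200 genes changed 4-fold in simulated counts, 200 were recovered between the Cd3g and progenitor gates of each library, among 3111 (FL001) and 3037 (FL002) genes. The counts of each gate were drawn at once from the mean profile of all kept cells, without variation between cells. A 4-fold change was thus nearly sure to pass the 2-fold call, so this checks the counting and not the gates. The text names the 7 members, the gate genes, the 5 genes most like each member, and examples from the lists of related and marker genes. The examples were chosen after their values were seen. Promoter sequences are from RefSeq, build GRCm38.p6.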

Additional observations from a re-analysis of the deposited data

How the results depend on the processing

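The ratio of the Cd3g gate to the progenitor gate was recomputed for 6 members in each library under other settings. Of 139 alternatives, 92 gave a value inside the main interval, 42 one outside it on the same side of 1, and 5 one on the other side of 1. Of 672 alternatives for 84 shares, 560 stayed inside the interval, and of 194 alternatives for 40 co-detection ratios 187 did.

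Gzma, Gzmb, Nkg7 and Fcer1g were higher in the Cd3g gate under every setting that gave a value. With each lower gate threshold raised by 1 UMI, Gzma was 105 and 56.3, Gzmb 13.5 and 6.64, Nkg7 4.69 and 5.30 in FL001 and FL002. In that setting Gzmc was 20.2 (5.21 to 173) in FL001. With gates and levels from thinned cells, Gzma was 113 and 45.7, and Gzmb 19.8 (3.45 to 794) and 2.08 (1.21 to 3.82). Nkg7 was 17.2 and 4.58, Tyrobp 0.787 and 0.856, and Fcer1g 3.94 in FL001 in the same setting. With each cell in 1 gate only, Gzma was 53.7 in FL001, Gzmb 5.76 and 3.01, Nkg7 3.71 in FL002, Tyrobp 0.848 and 0.845, and Gzmc turned to 0.881 in FL002. As a mean over cells, Gzma was 57.7, Gzmb 14.4, Tyrobp 0.820 and Fcer1g 3.48 in FL001, and Fcer1g 3.22 in FL002. Gzma was 56.1 in FL001 without the highest doublet scores. Gzmb was 5.97 in FL001 at a maximum of 5% mitochondrial UMIs, and 2.71 in FL002 at a minimum of 3000 UMIs, where Gzmc turned to 0.524.

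Chosen after seeing the data, leaving out cells with neutrophil and monocyte UMIs gave Gzma 40.8 and 18.3, Gzmb 5.69 and 2.20, Nkg7 2.47 and 2.37, Fcer1g 4.15 and 3.94, Tyrobp 1.12 and 0.877, and Gzmc 0.968 in FL001. Leaving out innate-gate cells gave Gzmb 4.51 and 2.47, and Gzmc 0.734 in FL002. Subtracting free RNA at the Gzma share of the reference cells gave Gzma 53.4 in FL002 and no value in FL001, where the progenitor gate reached 0. That share in FL001 leaned on 1 reference cell with 133 of 272 Gzma UMIs. The planned subtraction, at the share where the least abundant gate of a member reaches 0, gave no value for Gzma in FL001 and subtracted 0 in FL002. In the Cd3g gate of FL001, with each cell in 1 gate, co-detection of Gzmb with Gzmc turned to 0 and of Gzmb with Tyrobp to 0.621. The causes were not tested, beyond what each setting leaves out.

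Depth limits Gzmc, with 176 and 139 UMIs, and Prf1, with 1 and 0. The innate gate, with 38 and 33 cells, limits every share in it. No paired analysis was possible because each library stands alone as 1 sample of its group.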

Other observations

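Megakaryocyte cells were taken as those with 3 or more UMIs of Pf4, Itga2b and Gp9 together and at most 1 of Cd3g. These cells, 21 in FL001 and 24 in FL002, held Gzmb at 166 CPM (112 to 237) and 186 CPM (121 to 275), in 6 cells of each library. This was above the level in barcodes of 1 to 100 UMIs, 78.3 and 65.8 CPM, and above the 15.5 and 4.64 CPM of the neutrophil and monocyte reference cells. Gzma in the same cells was 355 CPM (273 to 453) and 552 CPM (433 to 693). It was 116 and 151 CPM in the progenitor gate and 156 and 79.6 CPM in the reference cells. The Gzma level of the megakaryocyte cells came from few cells. In FL001 6 of 21 cells had a Gzma UMI, and 1 cell held 46 of the 64 UMIs. In FL002 5 of 24 cells had one, with 74 UMIs in all and up to 26 in 1 cell. Tyrobp was 44.3 and 37.3 CPM, lower than in any gate, while Fcer1g was 244 and 276 CPM. The cells had a median of 7448 and 5524.5 UMIs, and doublets were not removed. Their part in these values was not tested.

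Cpa3, the mast-cell carboxypeptidase, was among the genes most like Gzmb. It stood at 20.8, 95 and 118 CPM in the progenitor, early and Cd3g gates of FL001 and at 40.2, 119 and 115 CPM in FL002, and at 259 and 244 CPM in the innate gate. The other 9 mast-cell and basophil markers, Gata2 among them, summed to 42.6, 42.1 and 6.72 CPM in the progenitor, early and Cd3g gates of FL001 and to 34.6, 30.1 and 12.9 CPM in FL002, and so did not follow Cpa3. Of the 10 mast-cell and basophil markers, 4 in FL001 and 3 in FL002 had no UMI in the kept cells.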
